A study of Mus musculus with 3 samples.

Results

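At E13.5, 397 of 5962 dorsal skin cells met a rule for differentiating myocytes, and these 397 cells, of 16235 in the 3 libraries of the study, are described here. A cell was selected on measured values: at least 1 unique molecular identifier (UMI, 1 captured RNA molecule) of *Myog* and at least 1 UMI of at least 3 of the 5 genes *Ttn*, *Tnnt1*, *Actc1*, *Chrna1* and *Des*. The reference was the 4174 E13.5 cells with no UMI of *Myog*, *Myod1*, *Myf5* or *Pax7*, and the closest comparison was with 135 E13.5 cells that had no *Myog* UMI but carried at least 2 of *Pax7*, *Myf5* and *Myod1*, called Myog-negative myogenic cells below. The remaining 835 *Myog*-positive cells had 2 or fewer of the 5 genes. The cells came from back skin of C57BL/6 male mice with no genetic modification or treatment, taken at E13.5 and E16.5 (embryonic days dated by vaginal plug) or on the day of birth (P0), pooled over animals into 1 droplet library per stage. Fetal skin of both stages was dissociated with trypsin and newborn skin with collagenase IV. Stage and library therefore cannot be told apart, and at P0 the enzyme cannot be told apart from them either. With 1 library per stage the cells are not replicates, and no statistical test was possible. Every interval below is a 95% counting interval over UMIs or cells, and it does not cover the spread between animals or libraries.

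Skeletal muscle of the trunk forms from Pax3- and Pax7-expressing precursors that come from the somites. The myogenic regulatory factors *Myf5* and *Myod1* commit these cells to the lineage, and *Myog* then switches on terminal differentiation, in which the cell leaves the division cycle, builds sarcomeres, clusters acetylcholine receptors and fuses into multinucleated fibres. In the mouse trunk a thin sheet of muscle, the panniculus carnosus, lies directly under the dermis.

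The E13.5 library held 53334740 UMIs, with a median of 7067 per cell, and the 397 Myog-selected cells had between 3629 and 59561 UMIs with a median of 8133. The median was 6995 in the reference cells and 10662 in the Myog-negative myogenic cells. A deeper cell meets the rule more easily, and the median depth was 6800 UMIs in the 165 selected cells with 3 of the 5 genes, 8834 in the 131 with 4 and 13416 in the 101 with all 5. With every cell thinned to 3500 UMIs, 209 E13.5 cells, or 3.51%, met the rule. Libraries shared few cell barcodes (44 between E13.5 and E16.5, 41 between E13.5 and P0 and 32 between E16.5 and P0), and 5 selected cells carried a barcode also found at another stage.

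The cells were not uniform in the gene that defines them. *Myog* ranged from 1 to 178 UMIs per cell with a median of 5, which is 0.207 to 80.6 per 10000 UMIs with a median of 5.72. *Myog* UMIs were also found in cells of other types: 20.6% (16.8 to 24.8) of the 417 cells with UMIs of all 3 leukocyte genes *Tyrobp*, *Fcer1g* and *C1qb*, and 20.1% (14.1 to 27.3) of the 154 cells with all 3 endothelial genes *Pecam1*, *Cdh5* and *Kdr*, had at least 1, at median depths of 6493 and 10157 UMIs. Of all 5962 E13.5 cells, 1232 had at least 1 *Myog* UMI. The full rule was met by 19 (4.56%) of those leukocyte-marker cells and 5 (3.25%) of the endothelial-marker cells. It was also met by 26 (7.45%) of 349 cells with all 3 keratinocyte genes *Krt14*, *Krt5* and *Perp*. Among all E13.5 cells, 6.66% met it. The presence of *Myog* RNA thus did not by itself set the members apart from cells of other types, and the members are called Myog-selected cells here. They were divided at 10 *Myog* UMIs per 10000, a value chosen after the data were seen, into 150 Myog-rich cells, which held 74.1% of all *Myog* UMIs of the library, and 247 Myog-poor cells, which held 11.3%. The leukocyte-marker cells that met the rule included 5 Myog-rich cells, the keratinocyte-marker cells 2 and the endothelial-marker cells 0.

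The genes of the rule are given as a description, because they chose the cells. *Actc1*, the cardiac alpha actin that embryonic skeletal muscle also uses, had 0 to 311 UMIs per cell with a median of 9, and was found in 98.7% of the members. *Tnnt1*, slow skeletal troponin T, was found in 97.0%, *Des*, the intermediate filament protein of muscle, in 81.4%, *Ttn*, the giant spring protein of the sarcomere, in 67.3%, and *Chrna1*, the alpha subunit of the muscle acetylcholine receptor, in 39.5%. Just inside the threshold, the 165 cells with 3 of the 5 genes had a median of 2.83 *Myog* UMIs per 10000 and included 35 Myog-rich cells. Just outside it, the 179 *Myog*-positive cells with 2 of the 5 had a median of 1.91 and a highest value of 18.8, so some cells with much *Myog* lay outside the rule. In summed UMIs expressed as CPM, which sets every group to the same total, *Myog* stood at 1332, *Actc1* at 1882, *Tnnt1* at 725, *Ttn* at 365, *Des* at 278 and *Chrna1* at 100 in the members.

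*Myog* lies at chr1:134289989-134292548 on the plus strand, *Chrna1* at chr2:73563215-73580338 on the minus strand, *Chrng* at chr1:87204657-87212694 on the plus strand, *Actc1* at chr2:114047282-114053548 and *Acta1* at chr8:123891769-123894751, both on the minus strand, and *Mylpf* at chr7:127208890-127214298 on the plus strand (GRCm38, GENCODE vM21, all protein coding). The 250 bases before the annotated RefSeq start (GRCm38.p6) are shown for 5 of these genes, 2 of the rule (*Chrna1* and *Actc1*) and 3 outside it, with E-boxes of the letters CAGCTG or CACCTG (the latter also as CAGGTG on the other strand) and CArG boxes in capitals. E-boxes of this kind are bound by the myogenic regulatory factors and CArG boxes by serum response factor. The windows are chr2:73580339-73580588 for *Chrna1*, chr1:87205561-87205810 for *Chrng*, chr7:127211358-127211607 for *Mylpf*, chr8:123894776-123895025 for *Acta1* and chr2:114052876-114053125 for *Actc1*, each read 5′ to 3′ on the strand of the gene. The RefSeq starts of *Chrng*, *Mylpf* and *Actc1* lie inside the longer GENCODE gene, so these windows overlap its first part.
Chrna1: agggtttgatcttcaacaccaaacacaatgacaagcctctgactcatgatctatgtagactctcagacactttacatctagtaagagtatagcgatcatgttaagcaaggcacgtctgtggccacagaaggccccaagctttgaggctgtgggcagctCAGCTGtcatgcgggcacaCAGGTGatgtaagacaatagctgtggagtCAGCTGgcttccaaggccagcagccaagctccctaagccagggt
Chrng: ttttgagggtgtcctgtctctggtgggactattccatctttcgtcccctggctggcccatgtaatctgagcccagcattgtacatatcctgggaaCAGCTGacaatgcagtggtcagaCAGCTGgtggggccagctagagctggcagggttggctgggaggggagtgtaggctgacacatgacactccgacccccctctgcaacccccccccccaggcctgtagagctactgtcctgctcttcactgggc
Mylpf: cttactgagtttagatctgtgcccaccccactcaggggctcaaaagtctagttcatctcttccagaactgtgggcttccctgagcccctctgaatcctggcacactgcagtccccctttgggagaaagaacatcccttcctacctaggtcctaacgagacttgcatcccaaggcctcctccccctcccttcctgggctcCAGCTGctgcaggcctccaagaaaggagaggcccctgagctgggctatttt
Acta1: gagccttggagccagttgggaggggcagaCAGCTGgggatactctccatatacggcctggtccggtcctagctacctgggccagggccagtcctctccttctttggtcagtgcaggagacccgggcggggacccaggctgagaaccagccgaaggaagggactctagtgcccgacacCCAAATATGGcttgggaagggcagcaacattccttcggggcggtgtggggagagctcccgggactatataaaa
Actc1: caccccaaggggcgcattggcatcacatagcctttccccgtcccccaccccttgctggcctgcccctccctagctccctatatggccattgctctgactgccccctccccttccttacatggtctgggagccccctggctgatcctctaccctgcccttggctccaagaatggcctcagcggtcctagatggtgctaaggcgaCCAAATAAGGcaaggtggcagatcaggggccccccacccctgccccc
The *Chrna1* window held 3 E-boxes of these letters, the *Chrng* window 2, the *Mylpf* and *Acta1* windows 1 each and the *Actc1* window 0, while *Acta1* and *Actc1* each had 1 CArG box. These 5 windows were chosen after the search, and the windows of *Myog*, *Cdh15*, *Myl4*, *Tnnc1* and *Vgll2* held neither CAGCTG nor CACCTG. E-boxes with other letters were not searched for, so these windows may hold some. Among the 27025 genes with such a window, 14.7% held CAGCTG, 19.4% held CACCTG and 1.62% held a CArG box on either strand, so a match is a description and not a binding site. Of the 194 genes at least 2-fold higher in the members than in reference cells, 71.6% matched a window, too few to give a share of motifs over them. *Tmem8c*, *Gm7325* and *Neb* had no entry.

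Against the reference, the Myog-selected cells had more RNA of fusion proteins, sarcomere proteins, acetylcholine receptor subunits, calcium-handling proteins and of the cell cycle inhibitors *Cdkn1a* and *Cdkn1c*, and less RNA of macrophage and dermal genes. Differences are given as the log2 ratio of summed CPM after 10 CPM were added to each side, which understates the difference of low genes. Of 13268 genes with at least 50 UMIs over both groups and outside the rule, 194 (1.46%) were at least 2-fold higher and 174 (1.31%) at least 2-fold lower in the members. Since the rule selected on muscle RNA in the same cells, a muscle gene among them is a description. The median gene was at -0.136, so the members were lower in the typical gene, and scaling by the median ratio gave 217 higher and 92 lower. Against the Myog-negative myogenic cells, 137 of 8779 genes (1.56%) were at least 2-fold higher and 12 (0.137%) at least 2-fold lower, with the median gene at -0.015.

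Among the 21 listed myogenic transcription factors outside the rule, 19 had enough UMIs against the reference, of which 6 were at least 2-fold higher, among them *Mef2c*, *Lbx1*, *Msc* and *Vgll2*, and 0 lower, with a list median of 0.69. *Vgll2*, a cofactor of Tead factors that is needed for muscle fibre genes, had 170 CPM in the members, 60.4 in the Myog-negative myogenic cells and 3.42 in the reference, and the log2 difference was 3.74 (3.63 to 3.86) over the reference and 1.35 (1.09 to 1.61) over the myogenic cells. *Mef2c*, which acts together with *Myog* on contractile genes, had 162 CPM against 29.9 in the myogenic cells, a log2 difference of 2.11 (1.79 to 2.43). The lineage genes *Pitx3* (82.5 CPM) and *Lbx1* (35.7) were well above the reference but within 2-fold of the myogenic cells. *Msc*, a repressor of the bHLH class that opposes *Myod1*, was between the groups, at 165 CPM in the members, 503 in the myogenic cells and 12.5 in the reference. Of the genes that set up the groups, *Myod1* had 340 CPM in the members, *Pax7* 19.8 and *Myf5* 23.0. *Myf6*, the factor of maturing fibres, had 3 UMIs in all members together.

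Both genes of the membrane fusion step were higher in the members than in the myogenic cells. UMIs count molecules by their 3′ end and were not divided by gene length, so levels are compared between groups and not between genes. *Gm7325*, now named *Mymx* (chr17:45600971-45602102, minus strand), encodes the fusogenic micropeptide myomixer and had 1163 UMIs or 243 CPM in the members against 6 UMIs or 3.45 CPM in the myogenic cells, a log2 difference of 4.23 (3.84 to 4.50), and from 0 to 46 UMIs per cell with a median of 1. *Tmem8c*, now *Mymk* (chr2:27061636-27072179, minus strand), encodes its partner myomaker and had 785 UMIs or 164 CPM against 4 UMIs there, a log2 difference of 3.82 (3.44 to 4.05). Both were as low in the myogenic cells as in the reference, where they stood at 3.42 and 2.04 CPM. By contrast *Cdh15*, the muscle cadherin, was already high in the myogenic cells at 90.3 CPM and stood at 138 in the members. Of 21 fusion and adhesion genes with enough UMIs, 4 were at least 2-fold higher than in the reference (these 3 and *Cav3*) and 0 were lower, and the list median was -0.10. Against the myogenic cells 3 of 15 were at least 2-fold higher, with a median of 0.35. Genes that other cells use for adhesion, such as *Ncam1* (214 against 230 CPM) and *Cd81* (354 against 667 CPM), were not higher in the members than in the reference.

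Of the 48 contractile genes with enough UMIs outside the rule, 29 were at least 2-fold higher than in the reference and 1, *Nebl*, was lower, with a median log2 difference of 1.24, and 26 of 41 were at least 2-fold higher than in the myogenic cells. The 29 became 19 with every cell thinned to 3500 UMIs, 37 in the 150 Myog-rich cells and 6 in the 247 Myog-poor cells. By compartment the counts over the reference were 8 of 12 for the thick filament and M band, 11 of 19 for the thin filament and 10 of 17 for titin, Z disc and desmin genes. *Tnnt2*, the cardiac troponin T that embryonic skeletal muscle also carries, had 323 CPM in the members and 6.27 in the reference, a log2 difference of 4.36 (4.25 to 4.46), and 12.7 in the myogenic cells, a difference of 3.88 (3.51 to 4.22), and its UMIs per cell ran from 0 to 89 with a median of 1. *Tnni1* (slow troponin I, 237 CPM), *Mylpf* (fast regulatory light chain, 314), *Myl4* (embryonic light chain, 224), *Myl1* (fast light chain, 184) and *Neb* (nebulin, the ruler of the thin filament, 177) followed, at 3.82 to 3.98 over the reference. *Neb* and *Myl4* were already present in the myogenic cells, at 52.3 and 31.6 CPM, whereas *Tnni1* stood at 4.03 and *Myl1* at 5.18 there. Genes used by many cells differed little, and *Tpm1* had 773 CPM against 632 in the reference.

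Of the myosin heavy chains named here, the embryonic gene had the most UMIs and the adult fast genes had few. Embryonic myosin heavy chain *Myh3* had 342 UMIs in the members, the perinatal *Myh8* 55, the adult fast *Myh1* 23 and *Myh4* 7, and the slow *Myh7* 21. Of the actins, the smooth muscle gene *Acta2* had 771 CPM in the members and 142 in the reference, which was 2.37 (2.31 to 2.42) over the reference on the log2 scale. The smooth muscle genes *Tagln*, *Cnn1* and *Myh11* were at 34.7, 0.627 and 0.209 CPM in the members and at 48.4, 2.24 and 0.224 in the reference, so none of these 3 was higher with *Acta2*. Of the 8 smooth muscle and heart genes with enough UMIs, 2 were at least 2-fold higher, *Acta2* and *Tnnt2*, and *Myl7* and *Myocd* had 0 UMIs, below a floor of 0.627 CPM for 3 counts. *Ckm*, the creatine kinase of mature muscle, had 4 UMIs, and of 12 muscle energy genes with enough UMIs 2 were at least 2-fold higher, *Pgam2* and *Cox6a2*. The 12 dystrophin complex genes held none at least 2-fold higher or lower, near the 1.46% and 1.31% of all compared genes.

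**Figure D1:**
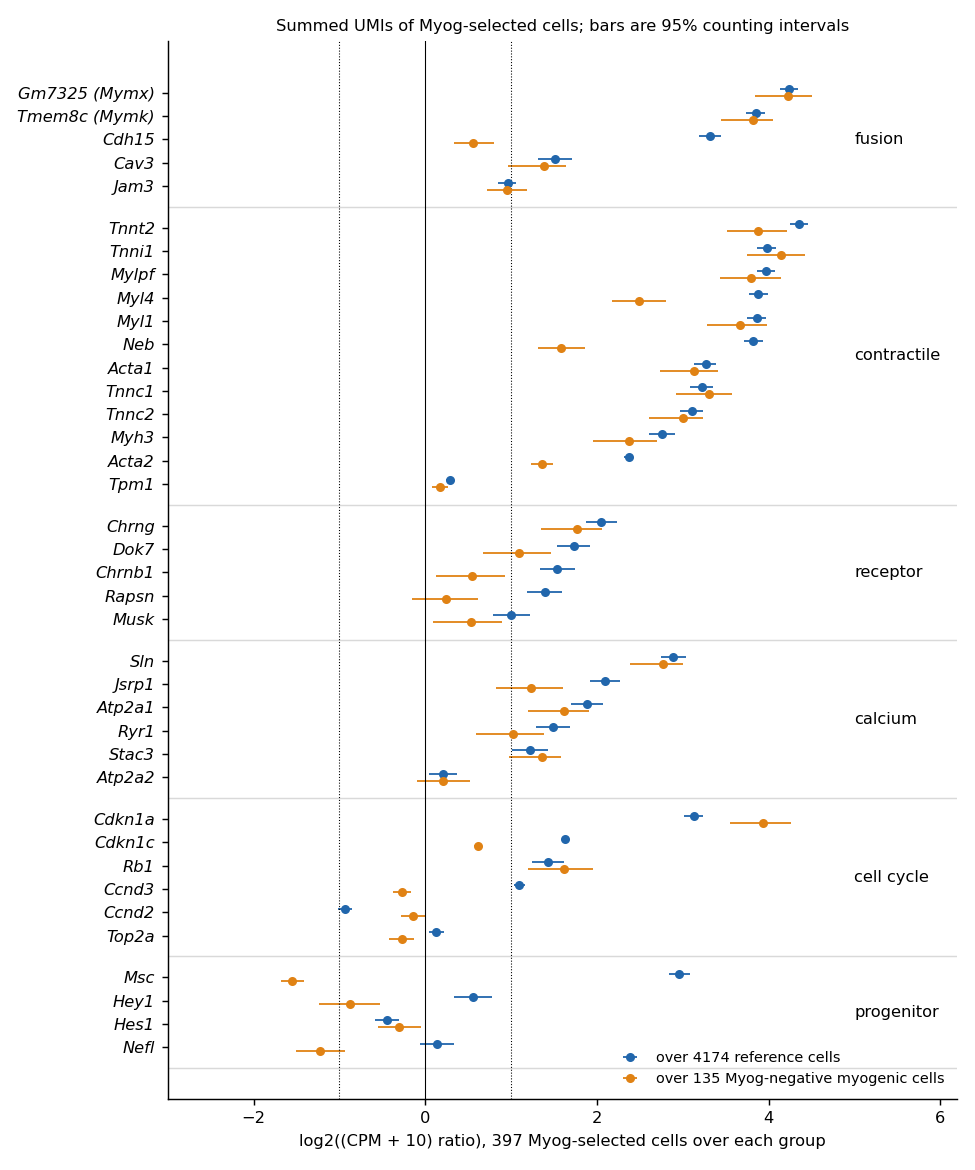
Log2 ratio of summed CPM, with 10 CPM added to each side, of the 397 Myog-selected cells over the reference (blue) and over the Myog-negative myogenic cells (orange) for 38 named genes, with 95% counting intervals and dotted lines at 2-fold. *Gm7325* and *Tmem8c* are about equally far from both groups, while *Cdh15*, *Neb* and *Myl4* are closer to the myogenic cells and *Msc* is lower than in them.

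At the surface, 5 of the 9 receptor and junction genes with enough UMIs were at least 2-fold higher than in the reference (*Chrnb1*, *Chrng*, *Musk*, *Dok7* and *Rapsn*) and 0 were lower, with a median log2 difference of 1. After thinning 3 were, and 2 in the Myog-poor cells. *Chrng*, the gamma subunit of the fetal receptor, had 162 UMIs or 33.8 CPM, against 2.88 CPM in the myogenic cells and 0.56 in the reference, and the adult epsilon subunit *Chrne* had 0 UMIs. *Dok7* (24.9 CPM) and *Musk* (11.1), the adaptor and kinase that cluster the receptor, and *Rapsn* (25.5), its scaffold, were found together with it, whereas *Lrp4*, the agrin receptor, was at 6.06 CPM in the members and 6.47 in the reference. Of 15 excitation-contraction coupling genes, 8 were at least 2-fold higher and 0 lower, with a median of 1.09, against 5 after thinning and 1 in the Myog-poor cells. They included *Ryr1*, the calcium release channel (21.9 CPM), *Stac3* (17.1), *Jsrp1* (44.3), *Atp2a1*, the fast calcium pump (29.5), its inhibitor *Sln* (70.0) and *Bin1* (223), which shapes the T tubule. *Cacna1s*, the voltage sensor, had 0 UMIs in the members. The pump of most other cells, *Atp2a2*, had 54.1 CPM in the members and 45.5 in the reference.

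Within the members, *Tnnt2* and *Gm7325* were higher and *Msc* and *Pax7* lower in cells with more *Myog*. The summed UMIs of the progenitor and Notch list did not follow *Myog*. The 397 cells were placed in 4 bands of *Myog* per 10000 UMIs, also chosen after the data were seen, of 111, 136, 101 and 49 cells (under 2, 2 to 10, 10 to 30 and 30 or more). *Tnnt2* had 22.8, 86.1, 497 and 1225 CPM in these bands and *Gm7325* 8.01, 84.7, 376 and 899. *Msc* had 327, 160, 30.3 and 10.1 CPM, and *Pax7* 35.7, 22.4, 5.51 and 0. The Notch target *Hes1* had 90.6, 105, 34.9 and 15.9 CPM and *Hey1* 24.7, 15.9, 6.43 and 0, where 0 allows up to 4.32 CPM in the last band. The progenitor and Notch list summed to 2543, 2738, 2368 and 2691 CPM. This sum is weighted by the most abundant genes of the list, which had 12353 UMIs in the members. *Itm2a* gave 3571 of these UMIs in the 319 members with 15 or more dermal marker UMIs per 10000 and 2213 in the other 78. *Hes6* gave 1121 over all members. *Hes6* had 564 CPM in the highest band against 104 in the lowest. The lineage gene *Lbx1*, at 39.4, 28.2, 39.5 and 36.0 CPM, did not follow the bands. Across cells, the Spearman correlation of *Myog* with the summed contractile genes outside the rule was 0.71 and with total UMIs -0.18 (397 cells of 1 library, all values sharing the cell's depth as denominator). The lowest band of *Myog* had the deepest cells apart from the highest, with a median of 11814 UMIs against 6916, 6555 and 13061.

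**Figure D2:**
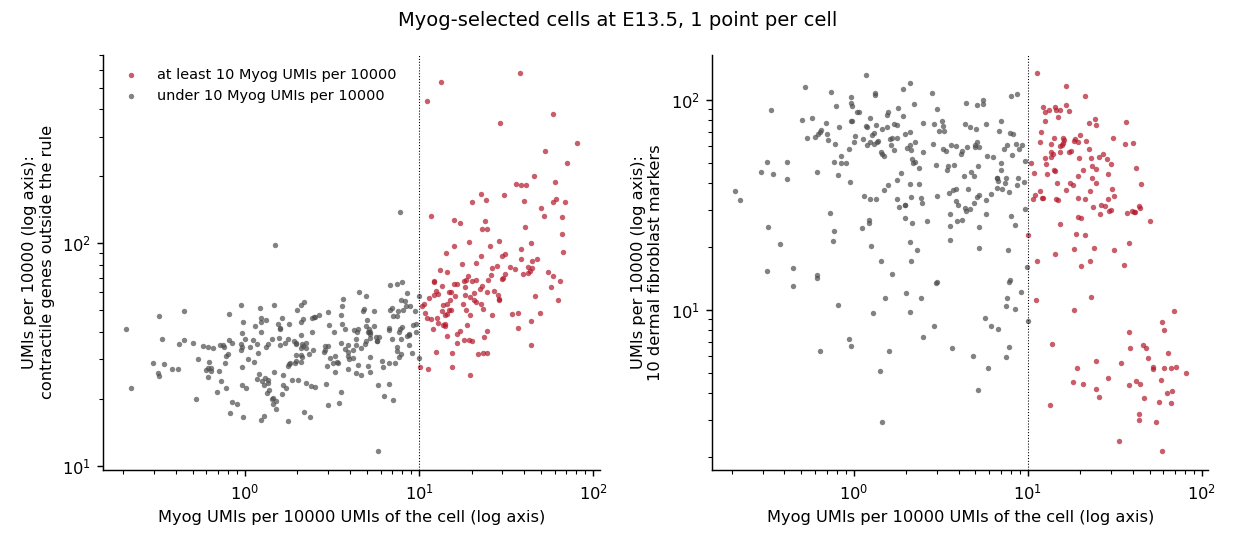
Each point is 1 of the 397 Myog-selected cells, with its *Myog* UMIs per 10000 on the horizontal log axis and, on the vertical log axes, the summed UMIs per 10000 of the contractile genes outside the rule (left) and of 10 dermal fibroblast markers (right). The dotted line marks 10 per 10000, which separates the 150 Myog-rich cells (red) from the 247 Myog-poor cells (grey), and contractile RNA ranges from 11.6 to 138 per 10000 in the poor cells and from 25.4 to 578 in the rich cells.

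**Figure D3:**
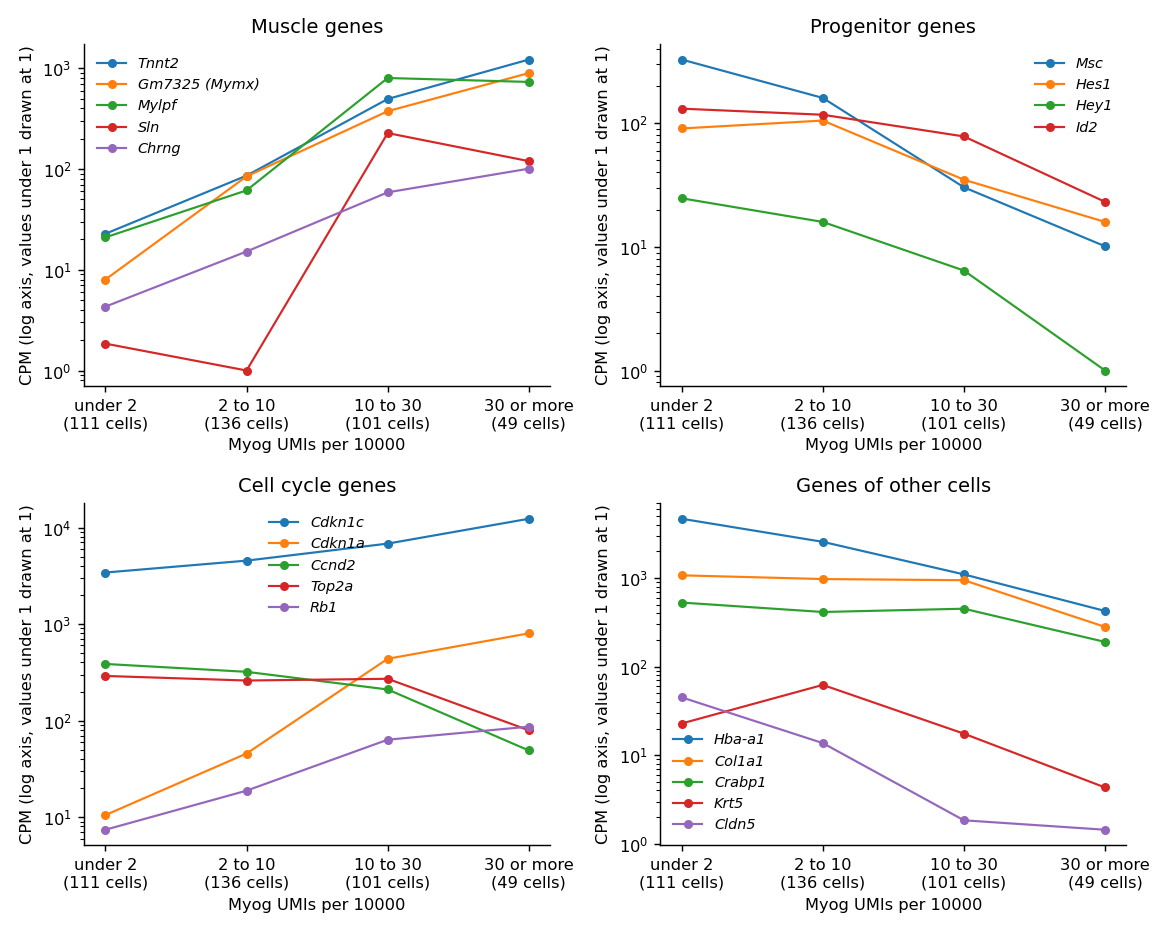
Summed CPM on log axes in the 4 bands of *Myog* per 10000 UMIs for muscle, progenitor, cell cycle and other-cell genes, 1 line per gene, with values under 1 drawn at 1. *Tnnt2* goes from 22.8 to 1225 CPM and *Cdkn1a* from 10.5 to 801, while *Msc* goes from 327 to 10.1 and *Hba-a1* from 4675 to 425.

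How far a gene's UMIs were concentrated in few cells differed between genes, also among those of the sarcomere. The 20 members with the most UMIs of a gene held 94.8% of those of *Acta1*, 97.4% of *Tnnc2*, 96.1% of *Sln* and 82.6% of *Myl1*, but 48.0% of *Tnnt2* and 45.6% of *Neb*. The same share was 31.3% for *Cdh15*, 39.2% for *Vgll2*, 42.5% for *Gm7325* and 46.8% for *Msc*. A single cell gave 268 of the 516 *Acta1* UMIs, 205 of the 335 *Sln* UMIs and 538 of the 1502 *Mylpf* UMIs, so the group value of these genes depends on it. *Acta1* was found in 43 members, *Tnnc2* in 31 and *Sln* in 33, against 201 for *Gm7325*, 195 for *Vgll2* and 227 for *Cdh15*. The 35 members with at least 100 contractile UMIs per 10000, a value chosen after the data were seen, held 9.71% of the members' UMIs. They held 29.9% of the *Myog* UMIs, 53.2% of *Cdkn1a* and 94.9% of *Sln*, but 21.4% of *Vgll2* and 0.253% of *Msc*, of which they had 2 UMIs. Of these 35 cells, 34 were Myog-rich.

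With every cell thinned to 3500 UMIs, the share of cells with a UMI differed between genes of the same group. The troponin genes *Tnnt2*, *Tnni1*, *Tnnc1* and *Tnnc2* were found in 76.7%, 62.7%, 20% and 11.3% of the Myog-rich cells. *Gm7325* was found in 70.0% of the Myog-rich cells, 17.4% of the Myog-poor cells, 0 of the 135 myogenic cells, which allows a share of up to 2.22%, 3.12% of the leukocyte-marker cells and 1.30% of the endothelial-marker cells. *Tnnt2* was found in 20.6% of the Myog-poor cells, 3.70% of the myogenic cells, 4.08% of the leukocyte-marker cells and 3.25% of the endothelial-marker cells. *Cdkn1a* was found in 66.7% of the Myog-rich cells and in 9.72% of the Myog-poor cells, close to the 9.59% of the leukocyte-marker cells. *Msc* was found in 7.33% (3.72 to 12.7) of the Myog-rich cells, close to the 6.95% (4.71 to 9.84) of leukocyte-marker cells, and in 32.4% of the Myog-poor and 71.1% of the myogenic cells. *Actc1* was found in 83.0% of the Myog-poor cells against 20.9% of the leukocyte-marker cells and 62.2% of the myogenic cells, although as a gene of the rule it had selected them. Before thinning, *Gm7325* was found in 50.6% of all members and in 4.80% of leukocyte-marker cells.

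**Figure D4:**
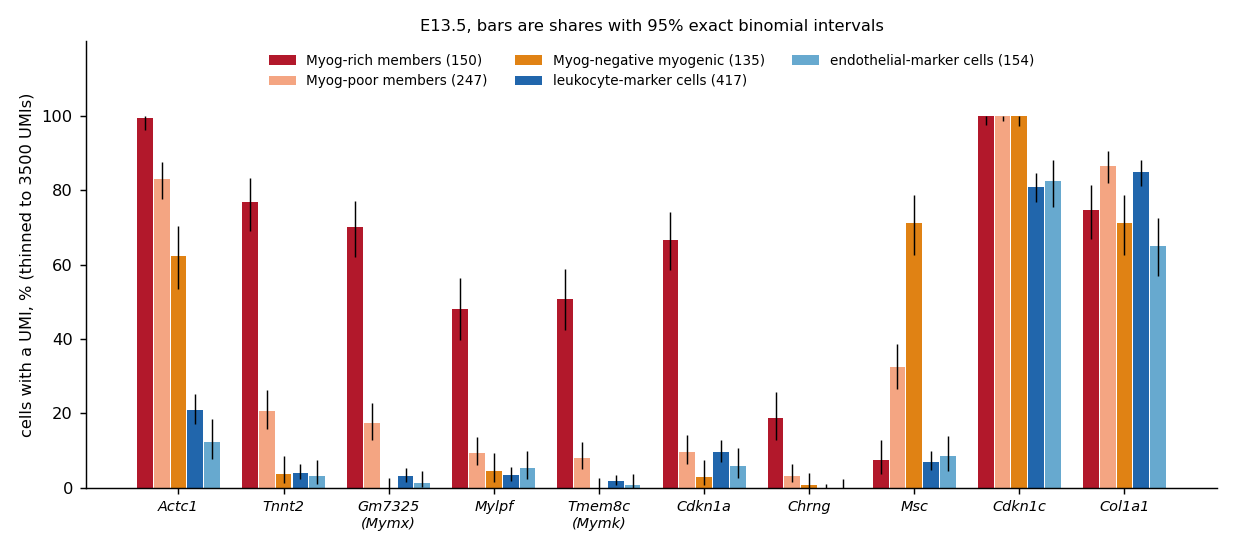
Percentage of E13.5 cells with at least 1 UMI of each gene after every cell was thinned to 3500 UMIs, with 95% exact binomial intervals, for Myog-rich and Myog-poor members, Myog-negative myogenic cells, leukocyte-marker cells and endothelial-marker cells. *Gm7325* reaches 70.0% in the Myog-rich cells and 17.4% in the Myog-poor cells, whereas *Col1a1* is found in 74.7% and 86.6% of them and in 84.9% of leukocyte-marker cells.

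The cell cycle inhibitors *Cdkn1a* and *Cdkn1c* were higher where *Myog* was higher, while the division genes were near the reference level in the members as a whole. *Cdkn1a*, the p21 inhibitor of cyclin-dependent kinases, had 232 CPM in the members, 17.7 in the reference and 5.75 in the myogenic cells, a log2 difference of 3.13 (3.02 to 3.24) and 3.94 (3.55 to 4.26), and it went from 10.5 to 45.6, 437 and 801 CPM over the bands. *Cdkn1c*, the imprinted p57 inhibitor, had 3 to 439 UMIs per cell with a median of 37 and stood at 5804 CPM in the members, 3804 in the myogenic cells and 1874 in the reference, and at 12324 CPM in the highest band. *Rb1*, the retinoblastoma protein that holds cells out of the cycle, had 34.9 CPM against 6.66 in the reference. *Ccnd3*, the D cyclin kept in differentiating muscle, had 539 CPM in the members, 247 in the reference and 650 in the myogenic cells. Of the 16 cell cycle exit genes, these 4 were at least 2-fold higher than in the reference and 0 were at least 2-fold lower. The list median was 0.12, and 7 of the 16 were below 0. None of the 42 S phase genes and none of the 51 G2/M genes was 2-fold higher or lower than in the reference, with medians of 0.07 and 0.01. Over all 13268 compared genes 1.46% were 2-fold higher and 1.31% lower, so a count of 0 in such lists is near that share. The lists summed to 2863 CPM in the members against 2675 in the reference, and to 6111 against 5941. Against the myogenic cells 39 of 41 S phase genes and 47 of 51 G2/M genes were lower, by medians of -0.25 and -0.19 and none by 2-fold. The median over all 8779 genes of that comparison was -0.015. In the members and the myogenic cells the lists summed to 2863 against 3543 CPM and to 6111 against 7199. Their summed level differed between bands: S phase genes had 3325, 3427, 2543 and 1163 CPM and G2/M genes 6754, 6106, 6434 and 4108. In the band of 49 cells with the most *Myog*, *Top2a* was at 79.3 CPM against 290 in the lowest band, *Mki67* at 21.6 against 112, *Pcna* at 34.6 against 142 and *Ccnd2* at 49.0 against 386. G2/M RNA was still present at 10 to 30 *Myog* UMIs per 10000, where *Top2a* had 271 CPM.

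The 10 genes lowest against the Myog-negative myogenic cells were *Msc*, *Kcne1l*, *Chodl*, *Nefl*, *Ifitm1*, *Vgll3*, *Gm266*, *Tagln*, *Dbx1* and *Asb4*, from -1.55 (-1.68 to -1.41) for *Msc* to -1.08 (-1.43 to -0.71) for *Asb4*. *Kcne1l* was at 107 CPM in the members and 305 in the myogenic cells, and at 18.8 in the reference, so both groups had more of it than other skin cells. *Nefl*, a neurofilament gene, had 28.0 CPM against 78.8. Of the 24 progenitor and Notch genes with enough UMIs, 5 were at least 2-fold higher than in the reference (*Hes6*, *Fgfr4*, *Megf10*, *Cd82* and *Itm2a*) and 2 lower (*Vcam1* and *Id2*). Against the myogenic cells 1 of 21, *Cd82*, was at least 2-fold higher and 0 at least 2-fold lower. Over all 8779 genes of that comparison 1.56% were higher and 0.137% lower by 2-fold, so a count of 0 is near that share. The list median was -0.26, and 13 of the 21 genes were below 0. *Hes6*, which counters Hes1 repression, had 234 CPM in the members, 120 in the myogenic cells and 35.7 in the reference. Among 16 myostatin, activin and Igf genes with enough UMIs, *Fst*, the antagonist of activin and myostatin, was the 1 that was at least 2-fold higher (101 against 19.9 CPM, log2 1.89, 1.75 to 2.03), and *Igf2* was at 1100 against 1245. Among 13 imprinted and noncoding genes, *Cdkn1c* alone was 2-fold higher, and *H19* had 1479 against 1235 CPM. Further genes among the 15 highest over the reference were *Fitm1* (108 against 2.94 CPM), a lipid droplet protein of muscle, and *Rbm24* (88.0 against 1.32), a splicing factor of muscle, both also present in the myogenic cells at 64.4 and 12.7 CPM.

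RNA of other cell types was present in the members, and its part in the results was not tested. The 10 dermal markers summed to 3715 CPM in the members, 7596 in the reference and 3144 in the myogenic cells, and 5 of 10 were at least 2-fold lower than in the reference and 0 higher. Those 5 became 1 as a mean over cells, after thinning, without the deepest cells or with 2 of the 5 rule genes required, 8 with 4 required and 2 under median ratio scaling. The median per cell was 42.2 dermal UMIs per 10000 in the members and 42.7 in the leukocyte-marker cells. Members with under 15 per 10000 numbered 78, of which 42 were Myog-rich, and they had a median of 16482 UMIs against 7408 in the other 319. Muscle RNA was higher in these 78, with *Myog* at 2443 against 873 CPM and *Gm7325* at 443 against 161. Leukocyte markers summed to 101 CPM in the members against 515 in the reference, epithelial markers to 185 against 480, endothelial markers to 99.4 against 232, Schwann and melanocyte markers to 158 against 405 and neuron markers to 271 against 483. At least 2-fold lower were 6 of 8, 4 of 10, 2 of 8, 4 of 9 and 2 of 9 of these lists, and 0 were higher. None of the pericyte, tendon and cartilage, erythroid or dissociation response genes was 2-fold higher or lower, near the 1.46% and 1.31% of all compared genes. Their sums were 54.7, 82.1, 11504 and 2300 CPM against 86.7, 165, 18197 and 2412. At least 3 neuron markers were found in 99 members (24.9%), in 31.9% of the myogenic cells and in 17.2% of the reference. The neuron share was 12.7% in the Myog-rich and 32.4% in the Myog-poor members. For epithelial markers the share was 13.9% in the members against 11.8% in the reference, and for Schwann and melanocyte markers 6.55% against 6.09%. It was lower in the members for leukocyte markers, at 7.3% against 11.9%, and endothelial markers, at 3.53% against 6.4%. Cells were not thinned for these shares. At least 3 leukocyte markers were found in 4.0% of the Myog-rich and 9.31% of the Myog-poor members. Erythroid RNA, mostly globin, was at 19844 CPM in the band with the least *Myog* and at 2391 in the band with the most. The 10 lowest genes against the reference were the macrophage and lymphatic genes *Apoe*, *C1qc*, *C1qb*, *Pf4*, *Ccl21a*, *Tyrobp*, *Fcer1g*, *C1qa*, *Sepp1* and *Lyve1*, from -2.22 (-2.33 to -2.12) to -1.71 (-1.91 to -1.48). The reference includes the macrophages and lymphatic endothelium themselves. In the 230 members that held fewer than 3 markers of each of 5 other cell types, 221 genes were at least 2-fold higher than in the reference and 386 lower. The reference kept all its 4174 cells in this comparison, so the filter itself makes genes of those cell types lower in the members.

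By the same rule, 17 of 5208 E16.5 cells (0.326%, 0.190 to 0.522) and 0 of 5065 P0 cells, which allows a share of up to 0.0592%, were selected, against 6.66% (6.04 to 7.32) at E13.5. Of all cells, 1232 had a *Myog* UMI in the E13.5 library, compared with 87 in the E16.5 library and 11 in the P0 library. The 17 cells at E16.5 had 6441 to 29354 UMIs and a median of 29.3 *Myog* UMIs per 10000. The E13.5 members had a median of 5.72, and the Myog-rich cells among them 22.6. *Acta1* had 527 CPM (435 to 633) in them against 108 at E13.5, *Ckm* 73.4 (41.9 to 119) against 0.836 and *Cryab*, a small heat shock protein of the Z disc, 518 (427 to 623) against 131. *Tnnt1* was lower at E16.5, at 381 CPM (303 to 472) against 725, and *Myh3* had 105 (66.8 to 158) against 71.5. *Cdkn1c* was at 11227 CPM against 5804. *Acta1* was found in 7 of the 17 cells and *Ckm* in 4, so these levels rest on few cells. Set beside the 150 Myog-rich cells at E13.5, *Acta1* was 0.87 (0.58 to 1.16) higher on the log2 scale, *Ckm* 2.77 (1.99 to 3.43) higher and *Mylpf* 0.14 (-0.08 to 0.36). *Cryab* was 0.74 (0.45 to 1.03) and *Cdkn1c* 0.33 (0.26 to 0.39) above these Myog-rich cells. *Myh3* was below them, at -0.67 (-1.28 to -0.11), and so was *Tnnt1*, at -1.68 (-2.01 to -1.37).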

How the data were processed

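Single-cell RNA-seq of male C57BL/6 back skin was made with the 10x 3′ v2 chemistry, 1 library per stage. Per the labels and the methods of the study, the authors aligned reads to mm10 and counted UMIs with Cell Ranger 2.2.0, forcing 7000 cells per library, kept cells with at least 1750 genes and genes in at least 3 cells, and deposited 1 table of natural log values, normalized per cell with Seurat. UMIs were recovered from the deposited natural log values, all 48197283 values above 0 being whole within 0.001. The table held more cells than the study analysed. No doublet caller was run and no doublets were removed.

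UMIs were summed over cells, scaled to CPM and compared as log2 ratios after adding 10 CPM, over genes with at least 50 UMIs in both groups together. Counting intervals are 95% exact Poisson (CPM) or exact Clopper-Pearson binomial (shares), and a count of 0 was bounded by 3 counts. Cells were thinned to 3500 UMIs for shares. Members, gene lists and bands were chosen with earlier results of these data known. Listed genes could be named, except 1 that is not reported here, as could the 15 highest and 10 lowest against the reference and the 10 highest and 10 lowest against the Myog-negative myogenic cells. Alternatives varied the rule, the depth, the cell and gene filters, the scaling, the added CPM and the reference cells. Scripts were tested on simulated data. Python 3.11.15, numpy 2.4.6, scipy 1.17.1, pandas 2.3.3 and matplotlib 3.10.9 were used.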

Additional observations from a re-analysis of the deposited data

Results flagged for a closer look

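*Fst* stood out because its difference from the reference had opposite signs at the 2 stages at which cells met the rule. At E13.5 its log2 difference was 1.89, at 101 CPM in the 397 Myog-selected cells against 19.9 in the reference. At E16.5 it was -2.72, with 1 UMI in the 17 selected cells, or 4.58 CPM (0.116 to 25.5), against 86.1 in the E16.5 reference. The difference was not tested, because each stage has 1 library.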

How the results depend on the processing

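Over the alternatives, 106 of 144 recomputed counts stayed within 1.5 times the reported count and 38 did not. Counts of genes higher than in the reference (194) were 344 with 1 CPM added, 310 in members with at least 10 *Myog* UMIs per 10000 and 85 in those under 10, a split chosen after seeing the data. Counts lower than in the reference (174) were 40 with at least 2 of the 5 genes required, 401 with at least 4, 65 as a mean over cells, 84 after thinning, 266 with at least 2500 genes per cell, 60 without cells above the 95th percentile of UMIs, 386 without members holding markers of another type, 1278 with 1 CPM added, 92 under median ratio scaling, and 689 and 64 above and below the *Myog* split. Against the myogenic cells, higher genes (137) were 70 after thinning, 301 with 1 CPM added, and 253 and 29 by the split, and lower genes (12) were 21 without other-type markers, 45 with 1 CPM added, and 119 and 4 by the split. Contractile genes (29) were 19 after thinning and 6 in members under 10 *Myog* UMIs per 10000, receptor genes (5) 3 and 2, and coupling genes (8) 5 and 1. Dermal markers lower than in the reference (5) were 1 with at least 2 of the 5 genes, 8 with at least 4, 1 as a mean over cells, 1 after thinning, 1 without the deepest cells, 2 under median ratio scaling, and 9 and 2 by the split, and G2/M genes (0) were 1 above it. The 17 cells at E16.5 were 9 after thinning. Of the named genes' differences, 289 moved by less than their counting interval, 320 moved by more and 1, *Ifitm1* against the myogenic cells, reversed to 0.02 with at least 2500 genes per cell. Cells holding markers of another type were left out of the members only, and not out of the reference or the myogenic cells. The causes were not tested. Leaving out a library was not possible with 1 per stage, and neither depth nor these alternatives speak to the spread between animals. No paired analysis was possible because each group is 1 library and no result comes from a test.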
